A study of Mus musculus with 16 samples.

Results

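Matricellular proteins are secreted proteins that sit in the extracellular matrix and signal to cells rather than holding tissue together, and fibronectin is the adhesive glycoprotein that many of them bind. The 10 genes described here were chosen by name, with older symbols accepted for Ccn1 (Cyr61) and Ccn2 (Ctgf), and each was read from its brightest probe. All 10 passed the filter on dim probes, among 24278 genes tested in all. They fall into 3 genes that macrophages themselves are known to make (Thbs1, Spp1 and Fn1) and 7 that are better known from fibroblasts (Sparc, Thbs2, Postn, Tnc, Fbln2, Ccn1 and Ccn2).

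RNA of sorted mouse macrophages was hybridised to 16 one-colour arrays in 4 groups: tumor YFP+ (n = 5), tumor YFP- (n = 5), normal pancreas YFP+ (n = 3) and normal pancreas YFP- (n = 3). Per the labels the animals were female, C57/B6 and 8 to 10 weeks old, tumors were implanted, and cells were sorted by FACS straight into lysis buffer. The series draws on wild-type, KPC and FLT3-CRE/LSL-YFP mice, but the labels give no genotype for a single array, so neither the KPC alleles nor the reporter can be assigned to groups beyond the YFP gate itself. KPC mice are a genetic model of pancreatic ductal adenocarcinoma. In FLT3-CRE/LSL-YFP mice, blood progenitors that turn on the receptor gene Flt3 make Cre, which removes a stop cassette and leaves these cells and their descendants YFP+. How completely the reporter marks such cells is not stated in the labels, and the labels do not say that the samples came from separate animals, so the p-values measure the spread between these samples.

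As background, thrombospondins 1 and 2 bind CD36 and CD47 and restrain vessel growth. Thrombospondin 1 also releases active TGF-beta from its latent complex. Osteopontin (Spp1) is an integrin and CD44 ligand that activated macrophages secrete. Periostin (Postn), tenascin C (Tnc), SPARC and fibulin 2 (Fbln2) are typical of remodelling or fibrotic stroma. CCN1 and CCN2 are targets of TGF-beta and of the mechanosensitive co-activator YAP. In pancreatic cancer, stellate cells and fibroblasts are the classical source of this stroma.

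Every level below is the log2 of the processed red-channel signal minus the log2 of that array's 75th percentile, so 0 is the 75th percentile of the array, and levels of different genes are not set against each other because each probe has its own response. Per-sample values follow the order of the sample numbers in the titles (23547, 23548, 23550, 23551 and 23677 for tumor, 23912, 23916 and 23917 for normal pancreas). Differences were tested with limma over all genes with Benjamini-Hochberg adjustment, and a gene is said to differ where the adjusted p is below 0.05. The 75th percentile ran from 2167.3 to 3387.9 intensity units, 64.9% to 75.4% of spots were well above background and 0 were saturated. It did not overlap between tumor YFP+ arrays (2910.6 to 3387.9) and tumor YFP- arrays (2167.3 to 2852.7). The macrophage genes Csf1r and Adgre1 were well above background on all 16 arrays. Although the labels say female, the Y-linked genes Eif2s3y, Ddx3y and Kdm5d were also well above background on 16 of 16 arrays, and Uty on 10. These Y-linked signals go against the label in every group. Xist, whose detection goes with the label, was well above background on 14 arrays. Cross-hybridisation was not tested.

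The 2 probes of Tnc gave different sizes of the same difference, so their letters are shown. Both are printed as the array's 60-base probes, all in lower case because no part is singled out.
Tnc probe A_55_P2421597: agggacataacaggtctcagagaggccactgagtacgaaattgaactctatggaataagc
Tnc probe A_52_P355169: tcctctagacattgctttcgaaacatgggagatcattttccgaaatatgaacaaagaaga
The first is the brightest by mean and lies at chr4:63643728-63643787 on the minus strand (mm9, from the scanner files). The files give no position for the second. Exon and UTR annotation of the probes was not used here.

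Samples of sorted tumor macrophages, whether YFP+ or YFP-, held far more Thbs1 and Spp1 RNA than samples of sorted normal pancreas macrophages. Thbs1 was 36.0-fold higher in tumor YFP+ than in normal YFP+ samples and 38.5-fold higher in tumor YFP- than in normal YFP- samples, and Spp1 was 11.6-fold and 48.1-fold higher in the same comparisons. Fn1 behaved differently: it was 2.45-fold higher in tumor YFP- than in normal YFP- samples and overlapped between tumor YFP+ and normal YFP+ samples. Between tumor YFP+ and tumor YFP- cells 0 of the 3 passed in limma, where 2.4% of all genes passed. At an unadjusted p under 0.05 it was also 0, where 10.3% of all genes had one.

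Thbs1, the angiogenesis inhibitor and TGF-beta activator (chr2:117952585-117952644, plus strand), stood at 2.03, 2.56, 1.24, 1.91 and 2.32 in tumor YFP+ samples and at 2.59, 1.83, 2.02, 3.09 and 2.57 in tumor YFP- samples. It stood at -3.92, -2.43 and -3.14 in normal YFP+ samples and at -3.64, -3.26 and -1.63 in normal YFP- samples. All 10 tumor samples lay above the array's 75th percentile, all 6 normal samples lay well below it, and the 2 populations overlapped within each tissue. The log2 difference of tumor minus normal was 5.17 ± 0.46 (SE, limma adjusted p = 4.92e-06) in YFP+ and 5.27 ± 0.46 (adjusted p = 3.21e-06) in YFP- cells. Without the normal YFP- sample 23917 the YFP- value was 5.87. The YFP+ difference minus the YFP- difference was -0.09, with a 95% interval of -1.49 to 1.30.

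Spp1, which encodes osteopontin (chr5:104868502-104868561, plus strand), stood at 3.47, 3.30, 2.45, 3.13 and 3.92 in tumor YFP+ samples and at 3.97, 3.29, 3.35, 3.90 and 3.74 in tumor YFP- samples. In normal pancreas it stood at 2.21, -0.92 and -2.16 in YFP+ and at -2.56, -2.51 and -0.74 in YFP- samples. One normal YFP+ sample, number 23912, thus came within reach of the tumor samples while its 2 partners stayed far below. Tumor and normal samples still did not overlap in either population. The difference was 3.54 ± 0.72 (SE, limma adjusted p = 0.00436) in YFP+ and 5.59 ± 0.72 (adjusted p = 0.000114) in YFP- cells. The YFP+ difference was 4.79 without the normal YFP+ sample 23912 and 2.61 without the normal YFP+ sample 23917, and the YFP- difference was 6.18 without the normal YFP- sample 23917. The YFP+ difference minus the YFP- difference was -2.05, with a 95% interval of -4.24 to 0.15 and adjusted p = 0.856.

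Fn1, which encodes fibronectin (chr1:71632116-71632175, minus strand), stood at 4.33, 4.52, 3.91, 4.45 and 4.72 in tumor YFP+ samples and at 4.63, 4.19, 4.31, 5.14 and 4.92 in tumor YFP- samples. It stood at 4.27, 4.39 and 4.70 in normal YFP+ samples and at 3.62, 2.98 and 3.43 in normal YFP- samples. The 3 normal YFP- samples were the lowest of all 16, and the other 3 groups overlapped. Tumor YFP- exceeded normal YFP- by 1.29 ± 0.25 (SE, limma adjusted p = 0.00245), whereas tumor YFP+ minus normal YFP+ was -0.07 with a 95% interval of -0.59 to 0.46. Within normal pancreas the YFP+ samples did not overlap the YFP- samples, at a difference of 1.11 ± 0.28 that missed the threshold (adjusted p = 0.172). The test of whether the YFP difference depends on tissue also missed it for Fn1 (-1.36 ± 0.35, adjusted p = 0.272).

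**Figure D1:**
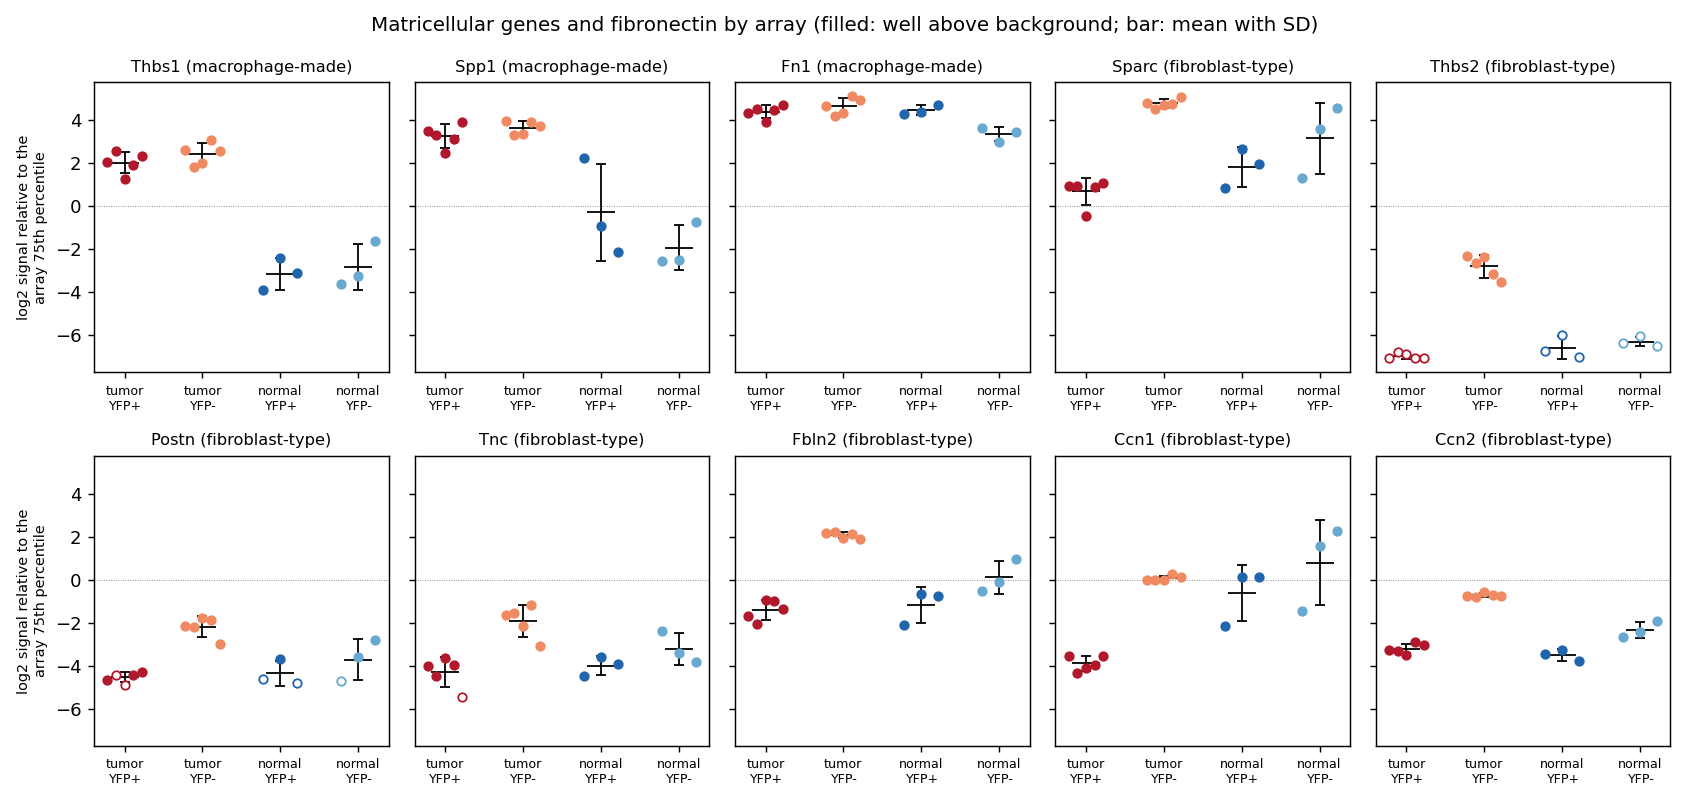
Log2 signal relative to the array's 75th percentile for each of the 10 genes (y axis) in the 4 groups (x axis), with 1 point per array, filled where the probe was well above background, and bars for the mean and SD. The 5 tumor YFP- samples of each of the 7 fibroblast-type genes lie above all 5 tumor YFP+ samples, while Thbs1, Spp1 and Fn1 overlap between the tumor populations.

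The 7 fibroblast-type genes separated the tumor populations. All 7 were lower in tumor YFP+ than in tumor YFP- samples, by 5.11-fold (Postn) to 17.1-fold (Sparc) among the genes measured in both, and Thbs2 by at least 4.19-fold. Over all genes tested, 1.64% were lower in this comparison by the same test. Thbs2 passed the filter on dim probes only through the tumor YFP- arrays and so had to differ, and the other 6 were measured in both tumor groups. The ranges of the 2 tumor groups did not overlap for any of the 7, against 2.85% of all genes that were lower without overlap. The median log2 difference was -3.48 for the 7 and -0.40 for the 3 macrophage-made genes, beside 0.00 over all genes. Within the 4 slides, each of which held both tumor groups, every one of the 7 was lower in tumor YFP+ on every slide, from -5.54 for Sparc to -0.57 for Tnc. With the normexp background correction, which adds an offset of 50 and shrinks dim signals, the calls were the same and sizes were smaller, at -2.88 for Ccn1, -1.86 for Ccn2 and -1.41 for Tnc.

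Thbs2, the thrombospondin that does not activate TGF-beta (chr17:14805730-14805789, minus strand), stood at -7.08, -6.80, -6.90, -7.08 and -7.06 in tumor YFP+ samples, against -2.34, -2.65, -2.36, -3.15 and -3.54 in tumor YFP- samples. It stood at -6.76, -6.01 and -7.01 in normal YFP+ and at -6.36, -6.07 and -6.50 in normal YFP- samples. Only the 5 tumor YFP- arrays had it well above background, and the other 11 did not. Thbs2 thus passed the filter on dim probes only through the tumor YFP- arrays, and comparisons with that group had to differ. The fitted difference between tumor YFP+ and tumor YFP- samples was -4.18 ± 0.24 (SE, limma adjusted p = 4.47e-07). Because the tumor YFP+ group was not well above background, its fold is a bound, for which the dim arrays were set at the lowest signal that was well above background on them, or at the probe's own signal if higher. Tumor YFP- exceeded normal YFP- samples by at least 3.42-fold on the same reckoning (adjusted p = 1.36e-06). With normexp the tumor difference was -1.70 and tumor YFP- minus normal YFP- was 1.47, both still past the threshold.

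SPARC binds collagen and modulates how cells attach to it. Its gene (chr11:55208939-55208998, minus strand) stood at 0.94, 0.94, -0.45, 0.88 and 1.06 in tumor YFP+ samples, against 4.78, 4.51, 4.71, 4.76 and 5.09 in tumor YFP- samples. It stood at 0.84, 2.66 and 1.95 in normal YFP+ and at 1.31, 3.58 and 4.55 in normal YFP- samples. The tumor YFP- samples were tightly grouped at the top, and the normal YFP- samples spread across most of the range between the tumor groups. The tumor difference was -4.09 ± 0.51 (SE, limma adjusted p = 0.00049).

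The 3 probes of Sparc did not all show this. Probe A_55_P2046807 (chr11:55208002-55208061) gave -5.00 ± 0.72 between the tumor populations, close to the brightest probe. Probe A_55_P2122835 (chr11:55207772-55207831) gave -0.23 ± 0.23 (adjusted p over probes = 0.824), with means of 0.23 in tumor YFP+ samples, against 0.46 in tumor YFP- samples. That probe was instead lower in tumor than in normal samples, with log2 differences of -1.62 ± 0.26 in YFP+ (adjusted p = 0.000731) and -1.36 ± 0.26 in YFP- cells (adjusted p = 0.00231). It was well above background on all 16 arrays, so the Sparc result holds for 2 of 3 probes. The mean of the 3 probes gave -3.11 between the tumor populations, still past the threshold.

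Tenascin C is an anti-adhesive glycoprotein of wounds and tumor stroma whose transcript is spliced in many forms. By its brightest probe, Tnc stood at -4.03, -4.49, -3.65, -3.96 and -5.44 in tumor YFP+ samples, against -1.66, -1.57, -2.15, -1.18 and -3.08 in tumor YFP- samples. It stood at -4.46, -3.59 and -3.93 in normal YFP+ and at -2.40, -3.40 and -3.84 in normal YFP- samples. The tumor groups did not overlap (-2.39 ± 0.41, SE, limma adjusted p = 0.00406), and the tumor YFP- group overlapped with normal YFP- samples.

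The second Tnc probe, whose letters are given above, was sharper. It stood at -0.62, 0.39, -0.70, -1.25 and -2.37 in the 5 tumor YFP- samples and was not well above background on any of the other 11 arrays, where it lay between -6.90 and -5.93. The tumor YFP- arrays alone carried this probe past the filter on dim probes, so it had to differ in both comparisons that follow. Tumor YFP+ was lower than tumor YFP- by at least 15.6-fold (fitted difference -5.59 ± 0.37, adjusted p over probes = 1.39e-06). Tumor YFP- was higher than normal YFP- by at least 12.8-fold (5.27 ± 0.42, adjusted p = 1.36e-06), a comparison that missed the threshold with the brightest probe (1.29 ± 0.47, adjusted p over genes = 0.078). Whether the probes read different transcript forms was not tested.

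**Figure D2:**
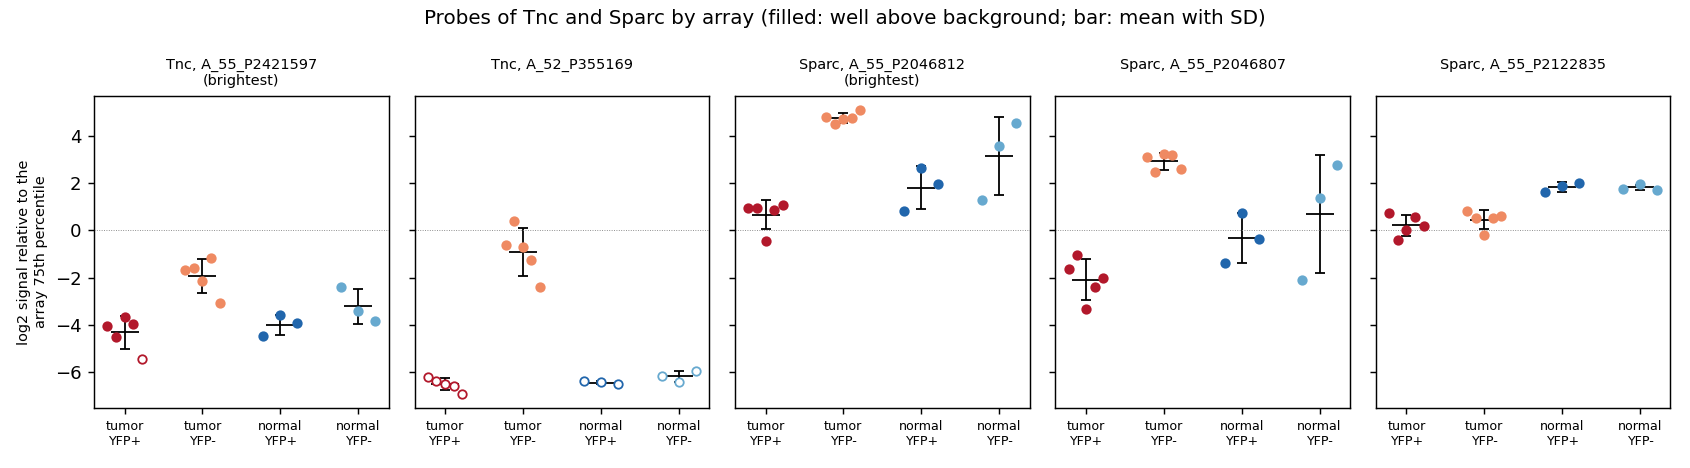
Log2 signal relative to the array's 75th percentile (y axis) for the 2 probes of Tnc and the 3 probes of Sparc in the 4 groups, with 1 point per array, filled where well above background, and bars for the mean and SD. The second Tnc probe is filled only in the 5 tumor YFP- samples, and the Sparc probe A_55_P2122835 lacks the gap between the tumor groups that the other Sparc probes show.

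Periostin, a fibroblast protein that supports collagen cross-linking and binds integrins, was dim: its probe (chr3:54194840-54194899, plus strand) was well above background on 3 of 5 tumor YFP+ and 5 of 5 tumor YFP- arrays. Levels ran from -4.90 to -4.30 in tumor YFP+ samples, against -3.01 to -1.76 in tumor YFP- samples, and from -4.79 to -3.69 in normal YFP+ against -4.73 to -2.81 in normal YFP- samples. The tumor difference was -2.35 ± 0.34 (SE, limma adjusted p = 0.00118), and -1.38 with normexp. Tumor YFP- was also higher than normal YFP- by 1.52 ± 0.39 (adjusted p = 0.0152), a call that was lost without the normal YFP- sample 23912 (1.01, adjusted p = 0.0794).

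Fibulin 2, which links fibronectin and elastic fibres (chr6:91222118-91222177, plus strand), ran from -2.06 to -0.95 in tumor YFP+ samples, against 1.88 to 2.20 in tumor YFP- samples. It ran from -2.12 to -0.65 in normal YFP+ and from -0.52 to 0.95 in normal YFP- samples. The 4 groups thus formed 2 overlapping low YFP+ groups, a middle normal YFP- group and a high tumor YFP- group. The tumor YFP+ minus tumor YFP- difference was -3.48 ± 0.32 (SE, limma adjusted p = 5.01e-05), and tumor YFP- exceeded normal YFP- by 1.96 ± 0.37 (adjusted p = 0.00244).

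Ccn1 and Ccn2 encode related proteins and are often used together as readouts of YAP, but their levels were ordered differently over the groups. Ccn1 (chr3:145310187-145310246, minus strand) stood at -3.53, -4.32, -4.13, -3.95 and -3.53 in tumor YFP+ samples, against 0.00, -0.03, 0.01, 0.25 and 0.12 in tumor YFP- samples. It stood at -2.14, 0.11 and 0.14 in normal YFP+ and at -1.44, 1.55 and 2.28 in normal YFP- samples. Tumor YFP+ was below every other group without overlap, and the tumor YFP- samples lay inside the range of the normal YFP- samples.

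For Ccn1 the tumor populations differed by -3.96 ± 0.58 (SE, limma adjusted p = 0.00134). It was the only fibroblast-type gene that differed between tumor YFP+ and normal YFP+ samples, at -3.26 ± 0.67 (adjusted p = 0.00447). Sample 23912 was the lowest of both normal groups, and without the normal YFP+ sample of that number tumor YFP+ minus normal YFP+ was -4.02. Tumor YFP- minus normal YFP- was -0.73, with a 95% interval of -2.16 to 0.71.

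Ccn2 (chr10:24318281-24318340, plus strand) stood at -3.25, -3.30, -3.50, -2.91 and -3.05 in tumor YFP+ samples, against -0.75, -0.80, -0.56, -0.73 and -0.77 in tumor YFP- samples. It stood at -3.47, -3.25 and -3.78 in normal YFP+ and at -2.68, -2.43 and -1.94 in normal YFP- samples. Both YFP+ groups were low and overlapped, normal YFP- was in the middle and tumor YFP- was highest, with no overlap between these 3 levels. The tumor difference was -2.48 ± 0.17 (SE, limma adjusted p = 1.56e-06), and tumor YFP- exceeded normal YFP- by 1.63 ± 0.19 (adjusted p = 4.98e-05). In tumor YFP+ minus normal YFP+ it was 0.30, with a 95% interval of -0.11 to 0.71.

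RefSeq promoters (GRCm38.p6, 250 bases before the start) were matched for 7 of the 10 genes: Sparc, Thbs2, Postn, Tnc, Spp1, Fbln2 and Ccn1. They were searched on both strands for GGAATG, the core letters recognised by the TEAD factors that carry YAP to DNA, for the AP-1 letters TGANTCA and for TATAAA. The TEAD letters were found in 1 of the 7, Ccn1, beside 12.6% of all 32851 promoters of that length, and the AP-1 letters in 0 of 7, beside 6.75% of all. The TATA letters were found in 5 of 7, counting any of a gene's listed starts, beside 12.4% of all promoters taken singly, so these are not like counts. They lay 25 bases before the start in Ccn1 and 26 in Postn. In Thbs2, Tnc and Spp1 they lay 126 to 211 bases before it. The Ccn1 promoter is printed because the order of its groups was unlike that of Ccn2, with the TEAD letters, which lie on the other strand and so read CATTCC here, and the TATA letters in capitals.
Ccn1, chr3:145649986-145650235, minus strand: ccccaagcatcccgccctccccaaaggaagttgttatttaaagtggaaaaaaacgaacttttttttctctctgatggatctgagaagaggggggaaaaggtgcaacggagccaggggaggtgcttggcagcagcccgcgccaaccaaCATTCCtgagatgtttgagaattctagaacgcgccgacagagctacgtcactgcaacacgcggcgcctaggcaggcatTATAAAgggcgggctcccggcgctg
The TEAD letters begin 103 bases and the TATA letters 25 bases before the annotated start. A match is a description of these letters and shows no binding.

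Over all 10 genes, tumor YFP+ minus normal YFP+ differences passed the test for 3: Thbs1 and Spp1 were higher, where 5.74% of all genes were higher, and Ccn1 was lower, where 6.52% were lower. The same 3 genes were those without overlap, beside 9.5% of all genes higher and 12.7% lower without overlap. In tumor YFP- minus normal YFP- differences, 7 passed and all were higher, where 7.63% of all genes were higher: Thbs1, Spp1, Fn1, Thbs2, Postn, Fbln2 and Ccn2. For 6 of the 7, all but Postn, tumor and normal samples did not overlap, beside 9.16% of all genes higher without overlap. Thbs2 is in both counts, but it passed the filter on dim probes only through the tumor YFP- arrays and so had to differ. Sparc (1.62 ± 0.59, SE, limma adjusted p = 0.0758) and Tnc missed the threshold.

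Within normal pancreas 0 of the 10 genes passed in limma between YFP+ and YFP- samples, where 0.0206% of all genes did, and 3 had an unadjusted p under 0.05, where 7.64% of all genes had one. All 7 fibroblast-type genes had negative values, with a median log2 difference of -1.15 beside -0.11 over all genes, although Thbs2 was not well above background in either normal group. Of 20 fibroblast and stellate cell markers, 0 passed in limma and 9 had an unadjusted p under 0.05, with a median of -1.59. Ccn2 (-1.15 ± 0.21, adjusted p = 0.101) and Fbln2 (-1.28 ± 0.42, adjusted p = 0.364) were lower in YFP+ and Fn1 was higher without overlap, beside 7.12% of all genes lower and 6.15% higher without overlap in this comparison of 3 with 3. Without the normal YFP- sample 23912, Ccn2 (-1.32, adjusted p = 0.0112) and Ccn1 (-2.54, adjusted p = 0.0315) passed. Leaving out that sample raised the calls over all 24278 genes as well, from 5 to 337. That sample had a summed fibroblast marker signal of 14.5 times its array's 75th percentile, against 55.0 and 94.5 in the other normal YFP- samples, and the part of fibroblast markers in these values was not tested.

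Whether the YFP difference depended on tissue was tested as the tumor difference minus the normal difference. Only Thbs2 was past the threshold, at -3.90 ± 0.40 (SE, limma adjusted p = 0.000754), where 0.0659% of all genes passed in the same direction. It was not well above background in either normal group, so no normal difference could be measured, and its value repeats the detection of Thbs2 in tumor YFP- samples and shows nothing about dependence on tissue. The same holds for the second Tnc probe (-5.34 ± 0.60, adjusted p over probes = 0.00162). The other 6 fibroblast-type genes had values from -2.77 (Sparc) to -1.33 (Ccn2). All 7, Thbs2 included, had an unadjusted p under 0.05, where 5.96% of all genes had one. After adjustment over all genes the 6 missed the threshold, all with adjusted p of 0.111 or more. A smaller difference in normal pancreas is therefore not shown for any of the 7.

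**Figure D3:**
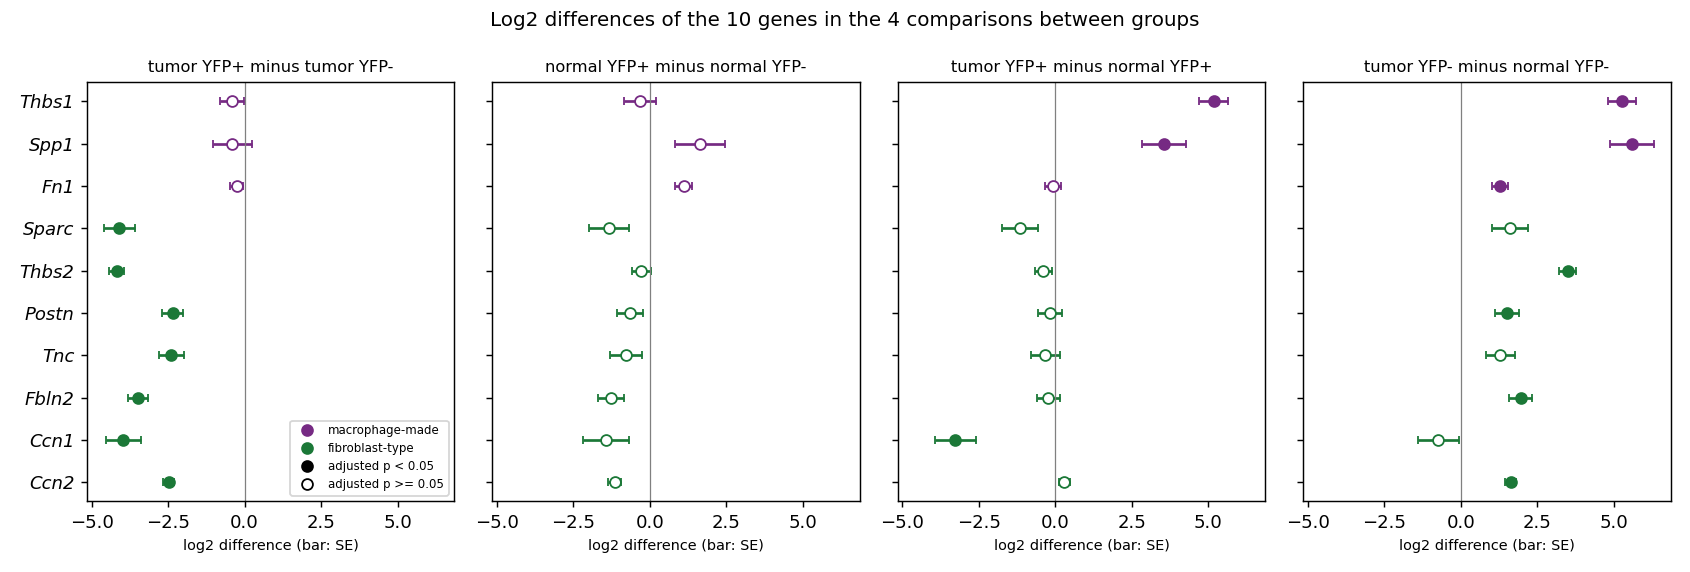
Log2 differences with standard errors (x axis) for the 10 genes (rows) in the 4 comparisons, filled where the limma adjusted p was below 0.05. The 7 fibroblast-type genes (green) are filled and negative in the tumor YFP comparison, and Thbs1 and Spp1 (purple) are filled and positive in both comparisons of tumor with normal pancreas.

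Markers of some other cell types, but not of all, moved with the fibroblast-type genes. Of 20 fibroblast and stellate cell markers that leave out these 10 genes, 15 were lower in tumor YFP+ than in tumor YFP- samples. Over all genes 1.64% were lower in this comparison. The median of the 20 markers was -3.82. Their summed signal, in multiples of the array's 75th percentile, was 11.1 to 18.1 in tumor YFP+ samples, against 79.8 to 127 in tumor YFP- samples, and 16.5 to 26.3 in normal YFP+, against 14.5 to 94.5 in normal YFP- samples. Col1a1, a collagen chain of fibroblasts, averaged -0.56 ± 0.68 in tumor YFP+ samples, against 3.83 ± 0.38 in tumor YFP- samples (SD, n = 5 each). Pdgfra, a receptor of fibroblasts, was well above background on 0 of 5 tumor YFP+ and 4 of 5 tumor YFP- arrays, and Pdgfrb on 1 of 5 tumor YFP+ and 5 of 5 tumor YFP- arrays. In sorted bulk samples, fewer cells of a type and less RNA per cell cannot be told apart, and the part of other cells in these differences was not tested.

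Of 14 ductal and epithelial markers tested, 7 were lower in tumor YFP+ than in tumor YFP- samples, with sums of 15.2 to 18.5 against 28.2 to 42.3. The share of all genes that were lower in this comparison was 1.64%. Of 10 mast cell and basophil markers, 7 were lower, with sums of 3.25 to 7.48 in tumor YFP+ against 16.9 to 65.6 in tumor YFP- samples. Of 14 acinar markers, 4 were lower, with sums of 4.66 to 11.1 in tumor YFP+ against 8.00 to 20.4 in tumor YFP- samples. Of the macrophage markers, 0 of 15 passed in limma, also 0 at an unadjusted p under 0.05, and their sums were 290 to 392 in tumor YFP+ against 280 to 427 in tumor YFP- samples. Of 12 endothelial markers, 0 passed (also 0 unadjusted), with sums of 4.50 to 9.19 against 5.54 to 16.2.

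The rise of Thbs1 and Spp1 in tumors has another set of markers beside it. Over all genes tested, 5.74% were higher and 6.52% lower in tumor YFP+ than in normal YFP+ samples. In tumor YFP- against normal YFP- samples 7.63% were higher, and 2055 of 24278 genes were lower. Platelets carry thrombospondin 1. Of 11 platelet and megakaryocyte markers, 1 was higher and 0 lower in tumor YFP+ than in normal YFP+ samples. In tumor YFP- against normal YFP- samples, 1 of these markers was higher and 1 lower. Their sums were 12 to 21.1 in tumor YFP+ against 18.2 to 23.1 in normal YFP+ samples, and 14.8 to 23.6 in tumor YFP- against 18.4 to 41.0 in normal YFP- samples. The marker that was higher, named after its values were seen, was Ppbp, a platelet chemokine. It was well above background on all tumor arrays and on 0 normal arrays, and was higher by at least 14.8-fold in tumor YFP+ than in normal YFP+ samples (limma adjusted p = 8.37e-07) and by at least 13-fold in tumor YFP- than in normal YFP- samples (adjusted p = 1.05e-06). Ppbp passed the filter on dim probes only through tumor arrays and so had to differ. Pf4, another platelet chemokine, averaged 3.32 ± 0.57 in tumor YFP+ (SD, n = 5) and 4.04 ± 0.29 in normal YFP+ samples (SD, n = 3). The part of platelet RNA in the Thbs1 result was not tested. Sums of ductal markers were 15.2 to 18.5 in tumor YFP+ against 6.81 to 8.39 in normal YFP+ samples, and 28.2 to 42.3 in tumor YFP- against 8.10 to 10.8 in normal YFP- samples, where 5 and 10 of 14 were higher; their part in the Spp1 result was not tested.

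Other lists also moved between tissues, to be read beside the all-gene shares in the paragraph above. Acinar markers fell in the tumor samples, 12 of 14 in YFP+ cells (median -7.06) and 13 of 14 in YFP- cells (median -6.56). Their sums were 4.66 to 11.1 in tumor YFP+ against 380 to 550 in normal YFP+ samples, and 8.00 to 20.4 in tumor YFP- against 484 to 1110 in normal YFP- samples. Macrophage sums were 290 to 392 in tumor YFP+ against 348 to 449 in normal YFP+ samples, and 280 to 427 in tumor YFP- against 313 to 594 in normal YFP- samples. Of the 15 macrophage markers, 4 were lower in tumor YFP+ than in normal YFP+ samples, and 1 was higher and 3 were lower in tumor YFP- than in normal YFP- samples. Mast cell and basophil markers were higher for 2 of 10 in YFP+ (median 1.70) and 9 of 10 in YFP- cells (median 4.26), with sums of 3.25 to 7.48 in tumor YFP+ against 1.28 to 3.51 in normal YFP+ samples, and 16.9 to 65.6 in tumor YFP- against 1.64 to 5.94 in normal YFP- samples. Of the 20 fibroblast and stellate cell markers, 2 were higher and 2 lower in tumor YFP+ than in normal YFP+ samples, and 6 were higher and 1 lower in tumor YFP- than in normal YFP- samples. The part of these cells in the tissue differences of the 10 genes was not tested.

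**Figure D4:**
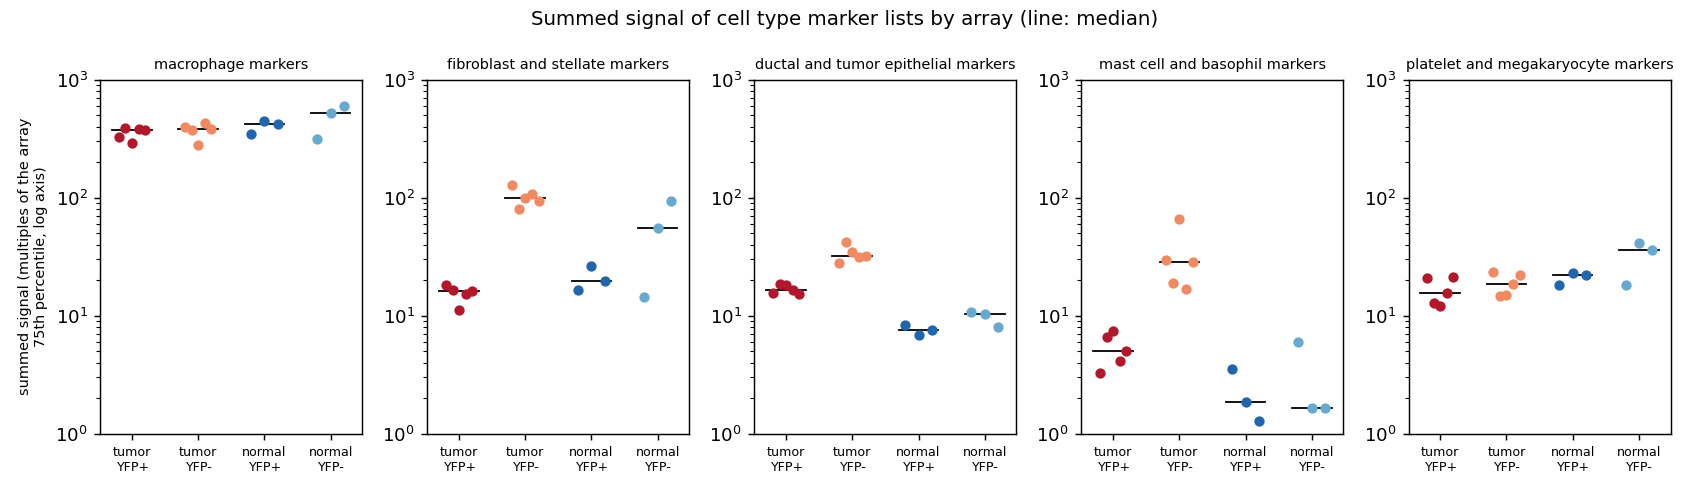
Summed signal of 5 marker lists in multiples of the array's 75th percentile (y axis, log scale) in the 4 groups, with 1 point per array and a line at the median. Fibroblast sums lie at 11.1 to 18.1 in tumor YFP+ and at 79.8 to 127 in tumor YFP- samples, while macrophage sums overlap.

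The pathway around the 10 genes was followed in lists of related genes. Of 23 other matricellular and fibulin genes tested, 7 were lower and 0 higher in tumor YFP+ than in tumor YFP- samples, with a median of -0.81. Over all genes 1.64% were lower in this comparison. Sparcl1, the closest relative of Sparc, was lower by at least 6.61-fold (adjusted p = 0.00952), and Efemp1 (fibulin 3) by at least 2.54-fold (adjusted p = 0.011). Fbln5 was lower by at least 1.5-fold (adjusted p = 0.00304) and Fbln1 was lower with a log2 difference of -2.05 ± 0.35 (SE, limma adjusted p = 0.00413). Tnxb (tenascin X, -2.79), Igfbp7 (-1.66) and Ccn4 (-1.11) were the others. Sparcl1, Efemp1 and Fbln5 were not well above background on any tumor YFP+ array, so their calls rest on detection in tumor YFP- samples.

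Ccn4 also differed by tissue. It averaged -3.46 in tumor YFP+ samples, against -2.35 in tumor YFP- samples, and was not well above background on any normal array, so it was higher in tumor by at least 2.37-fold in YFP+ (limma adjusted p = 0.00107) and at least 4.70-fold in YFP- cells (adjusted p = 3.61e-05). Ccn4 passed the filter on dim probes only through tumor arrays, so these tissue p-values add nothing to its detection there. The list was not uniform across tissues: in tumor YFP+ minus normal YFP+, 1 was higher and 6 were lower, and in tumor YFP- minus normal YFP-, 1 was higher and 3 were lower. Over all genes, 5.74% were higher and 6.52% lower in YFP+ cells. In YFP- cells 7.63% were higher, and 2055 of 24278 genes were lower.

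Receptors for these proteins include integrins, CD44, CD36, CD47 and syndecans. Of 19 receptor genes tested, 0 passed between tumor YFP+ and tumor YFP- samples in limma, 1 at an unadjusted p under 0.05, and their median was -0.02. That 1 was Itgb6, an epithelial integrin chain (-3.53 ± 1.03, adjusted p = 0.114). By tissue, 2 were higher and 1 lower in tumor YFP+ than in normal YFP+ samples, where 5.74% of all genes were higher and 6.52% lower. In tumor YFP- against normal YFP- samples 5 were higher and 2 lower. There 7.63% of all genes were higher, and 2055 of 24278 were lower. Chosen after their values were seen, Cd36, the scavenger receptor that binds thrombospondins, was lower in tumor, with log2 differences of -4.60 ± 0.92 in YFP+ (limma adjusted p = 0.00355) and -5.56 ± 0.92 in YFP- cells (adjusted p = 0.000795), and Sdc1 (syndecan 1) was higher by 1.72 ± 0.29 and 2.78 ± 0.29. Thbs1 and Cd36 thus moved in opposite directions in both populations.

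Of 18 TGF-beta and YAP response genes, 4 were lower and 0 higher in tumor YFP+ than in tumor YFP- samples. Over all genes 1.64% were lower in this comparison. Tgfb2, a TGF-beta ligand, was lower by at least 3.47-fold, and Tgfb1i1 (Hic-5), a focal adhesion protein, by at least 2.98-fold. Neither was well above background on any tumor YFP+ array, so both calls rest on detection in tumor YFP- samples. Ankrd1, a YAP target in several cell types, was lower with a log2 difference of -2.62 ± 0.43 (SE, limma adjusted p = 0.00325), and so was Ltbp2, a matrix protein related to the latent TGF-beta binding proteins (-1.31 ± 0.27). By tissue the list gave 6 higher and 3 lower in tumor YFP+ and 9 higher and 1 lower in tumor YFP- cells. The all-gene shares were 5.74% higher and 6.52% lower in YFP+ cells. In YFP- cells they were 7.63% higher, with 2055 of 24278 genes lower.

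Over the 16 arrays the levels of the fibroblast-type genes ran together. Their 21 pairs had Pearson correlations of 0.495 to 0.950, with a median of 0.836, while the 21 pairs of a fibroblast-type with a macrophage-made gene ran from -0.442 to 0.479. With group means removed, the first set ran from -0.451 to 0.889, with a median of 0.399 and 17 of 21 positive, and the second from -0.561 to 0.815, with a median of -0.00448 and 10 of 21 positive. The highest of the second set was Sparc with Thbs1. These are descriptions over arrays that share slides, groups and scaling. The genes most like each of 4 members over the 16 arrays, among 22111 candidates, were Bnip3 (r = 0.985), Mvb12b (0.985) and Sgk1 (0.983) for Thbs1, and Csta2 (0.973), Wfdc21 (0.966) and S100a9 (0.961) for Spp1. For Fn1 they were Golm1 (0.913), Adssl1 (0.907) and Anxa2 (0.905). For Ccn2 they were Timp3 (0.968), Lox (0.959) and the collagen chain Col1a1 (0.952).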

How the data were processed

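Sorted macrophage RNA was measured on 16 Agilent 4x44K mouse arrays. Per the file headers, the deposited scanner files hold red-channel intensity, background subtracted by Agilent Feature Extraction 11.5.1.1 (build mm9). The deposited table of normalized log2 values, whose columns share one distribution within 0.0069, served as an alternative. Outlier spots were left out, spots of a probe averaged, and log2 of the processed signal set relative to each array's 75th percentile. Probes well above background on at least 3 arrays were kept, and the brightest probe stood for a gene: 24278 genes from 30567 of 39429 probes. Genes were named from RefSeq by accession (28324 probes), symbol (2209) or synonym (174); 8722 kept the file's name. limma 3.58.1 (R 4.3.3) fitted 4 group means over all arrays, two-sided, adjusted over all genes. Signal over background and the number of arrays limit precision; 14.6% to 24.1% of spots per array lay at a surrogate value. The fit was tested on simulated data. The members and lists were chosen with earlier results of these data known. All 10 genes are named; of other lists, genes past the threshold between the tumor populations or with the smallest p there, unless stated otherwise. All 16 arrays shared 1 scan day and lay on 4 slides. With each gene's group means removed, same-numbered arrays of the 2 populations correlated at -0.29 to 0.314, not all above 0.1, so numbers were not used as pairs.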

Additional observations from a re-analysis of the deposited data

Results flagged for a closer look

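A pair of results stood out. Sparc in the tumor YFP+ sample 23550 was at -0.45, far from the other 4 samples of its group (0.88 to 1.06), in a check of 20 groups of 5 in which chance marks about 1 in 20; 1 was marked. Without this array the difference between the tumor populations was -3.81, the smallest in size of those seen on leaving out single arrays (-4.19 to -3.81). For Thbs2, the tumor difference minus the normal difference between YFP+ and YFP- cells was past the threshold (-3.90, limma adjusted p = 0.000754). Thbs2 was well above background only in tumor YFP- samples, so the normal difference could not be measured and the value shows nothing about dependence on tissue.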

How the results depend on the processing

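The 7 calls between the tumor populations, and every other call on the 10 genes except Postn in tumor YFP- minus normal YFP- (lost without the normal YFP- sample 23912), held under all 27 alternatives. The number of the 10 genes called was 2 between the normal populations with array weights, and 2 (mean of all probes) or 4 (array weights) for the dependence on tissue. Leaving out single arrays gave 0 to 2 calls between the normal populations (2 without the normal YFP- sample 23912) and 1 to 2 for the dependence on tissue (2 without the normal YFP- sample 23917). Tnc in tumor YFP- minus normal YFP- passed under 8 of 27 alternatives. Signs turned only in differences that had not passed: Fn1 between the tumor populations (0.14) and in tumor YFP+ minus normal YFP+ (0.04) without scaling, where the all-gene medians were 0.40 and 0.04; that second Fn1 value with median scaling (0.07); Thbs2 between the normal populations with quantile or deposited values (0.01); Thbs1 between the normal populations with array weights (0.11); and Thbs1 in the dependence on tissue with the slide as a block (0.20) or without scaling (0.14). On leaving out single arrays, Thbs1 ran from -0.71 to 0.29 between the normal populations and from -0.70 to 0.30 for the dependence on tissue. In tumor YFP+ minus normal YFP+, Fn1 ran from -0.16 to 0.06, Postn from -0.40 to 0.15 and Fbln2 from -0.71 to 0.03. In tumor YFP- minus normal YFP-, Ccn1 ran from -1.84 to 0.02. The cause was not tested.

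Over all genes, 582 passed between the tumor populations (184 higher, 398 lower), against 1150 (869 higher, 281 lower) without scaling, an alternative chosen after seeing the data. Between the normal populations 5 passed, against 0 (normexp, or the replicate block), 16 (quantile), 1155 (array weights) and 337 (without the normal YFP- sample 23912). For tumor minus normal, YFP+ gave 1394 higher and 1584 lower, against 1492 and 954 with median scaling and 4504 in all with array weights. YFP- gave 1853 higher and 2055 lower, against 2138 and 1189 with median scaling, 1339 and 2310 without scaling, 9344 in all with array weights and 2429 in all without the normal YFP- sample 23916. The dependence on tissue gave 25, against 8 with the slide as a block, 354 with array weights and 9 to 69 without single arrays. A replicate block put the count between the tumor populations at 604 and changed no call on the 10 genes; that block cannot be fitted to tumor minus normal differences, since numbers do not cross tissues, and a random block, also chosen after seeing the data, gave 2991 and 3910.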
